A study of Mus musculus with 12 samples.

Results

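Nucleosome positions called in round spermatids were set against those called in meiotic male germ cells of the mouse, both after digestion with 2 U of micrococcal nuclease (MNase), the highest amount in the study. The members are all calls of these 2 lists, 27101 from round spermatids and 65614 from meiotic cells, which is 92715 of the 415758 calls in the 6 lists of the series. They come from 4 of its 12 samples, since each list pools 2 replicates.

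The round spermatid group (RS) and the meiotic group (M) were both taken from testes of adult SV129 males aged 8 to 12 weeks. Cells from 11 mice per collection were separated by size in an albumin gradient, and fractions of at least 85% purity by nuclear stain were pooled, so single animals cannot be followed. The labels name the second group meiotic spermatid and their protocol names it meiotic, and it is called meiotic here. RS digestions held 2 times as many cells as M digestions, so that 2 U was 1 U per 100000 cells for RS and 2 U per 100000 cells for M, for 7.5 min at 37 °C in both.

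A nucleosome is DNA wound around a core of histones. MNase cuts the exposed linkers between nucleosomes first, so that DNA which survives digestion marks where histones or other proteins sat. Spermatocytes pair and exchange homologous chromosomes while the X and Y are silenced in a separate body. Round spermatids are the haploid cells that follow, still packaged by histones that are later replaced by transition proteins and then protamines. Active promoters, above all those rich in CpG, usually show a gap without nucleosomes at the start and a well placed first nucleosome just downstream of it.

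Regions of 250 bases just before 6 gene starts show what a call is at base level. They were picked by rule: the first pair each with a call in both lists, in RS only and in M only, by implied reads, among those in which a whole call of 140 bp lies before the start. Sequences are from RefSeq on GRCm38.p6, read 5′ to 3′ on the strand of the gene with the gene start just after the last base, and capitals mark the bases of the call with most reads (the RS call where both lists had one).
Shared by both lists were a promoter at chr1:26687461-26687710 on the minus strand, with calls of up to 9 reads in RS and 13 reads in M, and a promoter at chr6:126939716-126939965 on the plus strand, with 6 reads in each list.
4931408C20Rik: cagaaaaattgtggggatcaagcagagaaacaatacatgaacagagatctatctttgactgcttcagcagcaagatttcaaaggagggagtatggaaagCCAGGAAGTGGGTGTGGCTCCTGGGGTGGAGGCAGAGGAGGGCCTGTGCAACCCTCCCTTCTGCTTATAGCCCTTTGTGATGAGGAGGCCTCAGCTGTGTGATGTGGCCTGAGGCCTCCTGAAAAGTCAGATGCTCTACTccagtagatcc
D6Wsu163e: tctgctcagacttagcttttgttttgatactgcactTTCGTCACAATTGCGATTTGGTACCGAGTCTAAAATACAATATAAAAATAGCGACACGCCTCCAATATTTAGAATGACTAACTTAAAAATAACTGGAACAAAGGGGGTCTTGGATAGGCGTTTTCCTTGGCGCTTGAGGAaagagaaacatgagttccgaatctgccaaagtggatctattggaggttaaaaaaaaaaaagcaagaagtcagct
Found in RS only were the promoters at chr8:116978654-116978903 on the minus strand and of Ccdc103, a gene of ciliary dynein assembly, at chr11:102880974-102881223 on the plus strand, with up to 7 and 8 reads.
1700030J22Rik: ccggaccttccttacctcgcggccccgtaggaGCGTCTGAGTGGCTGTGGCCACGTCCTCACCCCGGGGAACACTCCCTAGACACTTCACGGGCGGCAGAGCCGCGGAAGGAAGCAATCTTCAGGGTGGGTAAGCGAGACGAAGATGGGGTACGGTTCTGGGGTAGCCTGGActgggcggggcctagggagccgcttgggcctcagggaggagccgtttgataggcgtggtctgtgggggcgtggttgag
Ccdc103: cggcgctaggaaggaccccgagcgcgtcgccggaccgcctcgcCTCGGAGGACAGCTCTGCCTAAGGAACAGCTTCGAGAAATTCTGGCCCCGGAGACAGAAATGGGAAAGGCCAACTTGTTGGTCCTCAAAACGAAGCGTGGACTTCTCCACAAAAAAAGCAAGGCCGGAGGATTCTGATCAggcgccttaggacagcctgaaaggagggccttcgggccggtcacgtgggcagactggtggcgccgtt
Found in M only were the promoters of Cyb5d2, a cytochrome b5 domain gene, at chr11:72795840-72796089 and of Gorab, which encodes a Golgi protein, at chr1:163403670-163403919, both on the minus strand, with up to 9 and 8 reads.
Cyb5d2: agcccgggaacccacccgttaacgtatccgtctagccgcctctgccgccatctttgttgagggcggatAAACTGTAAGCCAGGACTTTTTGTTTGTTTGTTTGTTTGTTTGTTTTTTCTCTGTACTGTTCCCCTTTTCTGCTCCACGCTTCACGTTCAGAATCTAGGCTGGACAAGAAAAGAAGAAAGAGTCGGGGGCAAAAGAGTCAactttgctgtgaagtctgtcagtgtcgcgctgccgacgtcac
Gorab: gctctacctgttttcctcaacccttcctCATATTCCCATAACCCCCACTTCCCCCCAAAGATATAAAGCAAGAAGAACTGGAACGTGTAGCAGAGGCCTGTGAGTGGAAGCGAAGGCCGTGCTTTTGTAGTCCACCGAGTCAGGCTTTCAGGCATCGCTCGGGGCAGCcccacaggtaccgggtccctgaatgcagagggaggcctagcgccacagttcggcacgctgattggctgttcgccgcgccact
In Ccdc103 the capitals hold 51.4% G and C, against 72.7% in the other bases of the window, and in Cyb5d2 they hold 41.4% against 60.0%. The shared call of 4931408C20Rik went the other way, with 58.6% in the call and 41.8% beside it, and D6Wsu163e had 39.3% and 37.3%. In 1700030J22Rik the call held 62.9% and the rest 69.1%, and in Gorab 54.3% and 61.8%. These 6 windows illustrate calls and were not compared as groups.

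Each call spans 140 bp and carries a p-value from the authors. The p-values of a list follow the upper tail of a Poisson distribution, from which a read number per call (the implied reads) and a mean per window were derived. The minimum was 6 reads in both lists, and 66.05% of RS calls and 67.83% of M calls stood at it. The implied mean was 0.409 reads in RS and 0.507 reads in M. RS thus had 0.413 times as many calls as M (0.407 to 0.419) at 0.807 times the implied mean. A Poisson model uniform along the genome, with these 2 means, would put 0.3 times as many windows at or above the minimum. The lists are not that uniform, with 21.07% of RS calls and 12.67% of M calls in 154 bins of 10 kb. What set the difference in list size was not tested. With 1 list per group there is no replicate error for any difference given here. No test of the stages was therefore made, and all intervals are exact 95% intervals for counting error only. They are too narrow, because neighbouring calls overlap and are not independent.

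Bins dense in calls took a larger share of the RS list when calls of 6 or more reads were used in both lists. In 10 kb bins with more than 20 calls in either list, called dense bins here, lay 21.07% of RS calls and 12.67% of M calls, a ratio of 1.66 (1.61 to 1.72). These bins, 154 in number, held 86.3% of the RS calls of 10 or more implied reads and 81.3% of such M calls. The bins were chosen by call number in these same 2 lists, without annotation of repeats, so the ratio is not independent of that choice. When M calls needed 7 or more reads and RS calls 6, the ratio turned to 0.683. Over whole lists, calls of 10 or more reads made up 11.3% in RS and 6.48% in M. Outside dense bins the shares were 1.83% in RS and 1.30% in M. All results on genes, chromosomes and spacing below use the 21201 RS calls and 56944 M calls on 21 chromosomes outside dense bins.

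Few positions were called in both stages, and the agreement grew steeply with the reads behind a call. Outside dense bins, 1497 RS calls (7.06%; 6.72 to 7.41) had an M midpoint within 73 bp, and 1615 M calls (2.84%; 2.70 to 2.98) had an RS midpoint within that distance. The share of the chromosomes that lies so close to a call of the other list is 0.232% for RS and 0.0872% for M. At 6 reads 3.10% of RS calls and 1.14% of M calls were shared. At 7 reads it was 10.2% of RS calls and 3.21% of M calls, and at 8 to 9 reads 34.6% of RS calls and 10.4% of M calls. Of calls with 10 or more reads, 94.1% of the 388 in RS and 68.2% of the 740 in M were shared. Calls outside dense bins were not screened for sequence present in several copies. On the X the highest of them had 46 implied reads in RS and 67 in M, far above the implied means. Whether copy number raised the sharing of strong calls was not tested. The offset of a shared RS call from its nearest M call had a median of 10 bp, and 62.1% of the 1497 lay within 10 bp.

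Strong calls without a counterpart were mostly meiotic. Only 9 RS positions of 10 or more reads lay over 1000 bp from any M call, against 106 such M positions (144 calls) far from any RS call. Of these 106, 36 lay in protein-coding genes, 12 within 300 bp of a gene start and 1 on the X. For comparison, of all 56944 M calls, 35.5% lay in protein-coding genes, 798 calls within 300 bp of a start and 599 on the X. These are calls and not merged positions. Places near starts thus took a larger share of the 106 than of all M calls, and genes and the X a similar share. The 106 were not set against other strong M calls. The highest had 17 reads and sat 112 bp after the start of Gbf1, which encodes an activator of Golgi ARF proteins. Since the minimum is the same in both lists while the M mean is higher, this difference cannot be told apart from that in coverage.

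Distances between positions showed a repeat in both stages. Overlapping calls were merged first, leaving 14585 RS positions and 38592 M positions. Merging removes most close pairs, so that only 3 RS pairs and 15 M pairs were left at 51 to 150 bp. Pairs of RS positions numbered 69 at 151 to 250 bp, 41 at 251 to 350 bp, 72 at 351 to 450 bp, 39 at 451 to 550 bp, 60 at 551 to 650 bp, 39 at 651 to 750 bp and 60 at 751 to 850 bp. In M the same windows held 300, 200, 246, 177, 215, 166 and 197 pairs. Both lists thus had more pairs in every second window, at about 200, 400, 600 and 800 bp. Distances from an RS position to an M position alternated less clearly, with 245, 200, 205, 179, 186, 152 and 179 pairs in these windows. The windows were chosen after the distances had been seen.

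**Figure D1:**
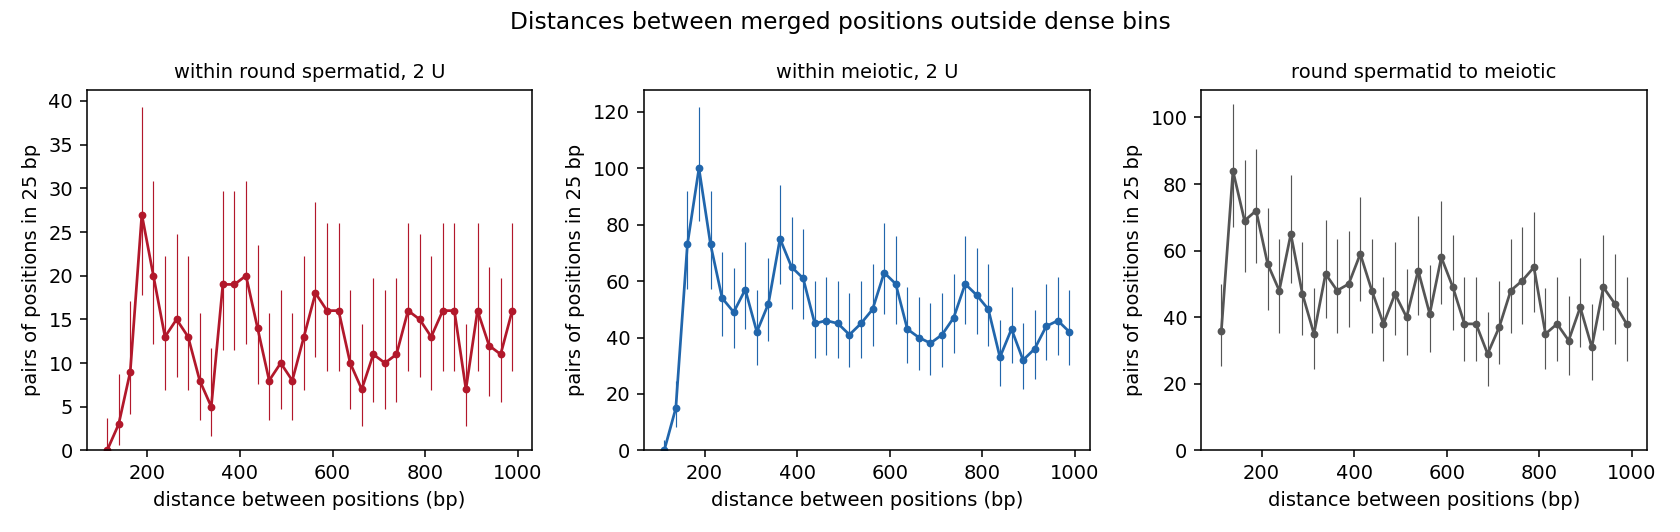
Number of pairs of merged positions by distance, in classes of 25 bp, within RS (left), within M (middle) and from an RS position to an M position (right), with 95% Poisson intervals. The highest class beyond 100 bp was 176 to 200 bp in RS (27 pairs) and in M (100 pairs), and lower crests follow about every 200 bp. Merging empties the shortest classes. With calls not merged, the highest class beyond 100 bp was 126 to 150 bp in RS (194 pairs) and 151 to 175 bp in M (479 pairs).

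Around gene starts both stages showed crests of calls on either side of a dip, and the crests were lower in RS. Strand was known for 17492 protein-coding starts. With the midpoint 100 to 199 bp after the start, where the first nucleosome of a gene is usually centred, lay 65 RS calls (307 per 100000 calls; 237 to 391) and 260 M calls (457 per 100000; 403 to 516). The ratio was 0.671 (0.504 to 0.884), a log2 ratio of -0.57 (-0.99 to -0.18). With overlapping calls merged the log2 ratio was -0.33 (-0.83 to 0.15), and with calls of 7 or more reads -0.41 (-1.17 to 0.29), both with intervals that include 0. Against the mean 100 bp of the flanks 1000 to 2000 bp away, that window held 4.68 times as many calls in RS and 8.23 times in M. The flanks themselves held 1310 calls per 100000 in RS and 1110 in M.

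Upstream the crest was lower in RS and its highest step lay farther out. At 101 to 200 bp before the start there were 41 RS calls (193 per 100000) and 182 M calls (320 per 100000), a log2 ratio of -0.72 (-1.25 to -0.23). At 201 to 300 bp before the start the lists were close, with 46 RS calls (217 per 100000) and 127 M calls (223 per 100000). In steps of 50 bp the RS maximum was at 201 to 250 bp before the start, with 33 calls against 25 in the next step towards the start, a difference within counting error. The M maximum was at 151 to 200 bp, with 116 calls. Directly before the start, in the last 100 bp, were 21 RS calls (99.1 per 100000) and 65 M calls (114 per 100000), 1.51 and 2.06 times the flanks. The dip between the crests was thus not below the flanks over all starts.

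The crests were higher over the flanks at starts with more CpG than at those with few. Among 7906 starts with 16 or more CpG in the 300 bases around them, the window after the start held 41 RS calls and 165 M calls, 8.37 times the flanks in RS and 21.2 times in M. Before these starts, at 101 to 200 bp, were 23 RS calls and 125 M calls, a log2 ratio of -1.02 (-1.73 to -0.37). The last 100 bp held 4 RS calls (0.816 times the flanks) and 25 M calls (3.21 times). Flanks of CpG-rich starts held relatively more calls in RS, by 1.69 times (1.30 to 2.19). Among 2903 starts with 8 to 15 CpG, the window after the start held 15 RS calls and 56 M calls, 8.33 times the flanks in RS, close to the value at the richest starts, and 11.7 times in M. Among 6683 starts with 0 to 7 CpG, the window after the start held 9 RS calls and 39 M calls, 1.25 times the flanks in RS and 2.05 times in M.

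**Figure D2:**
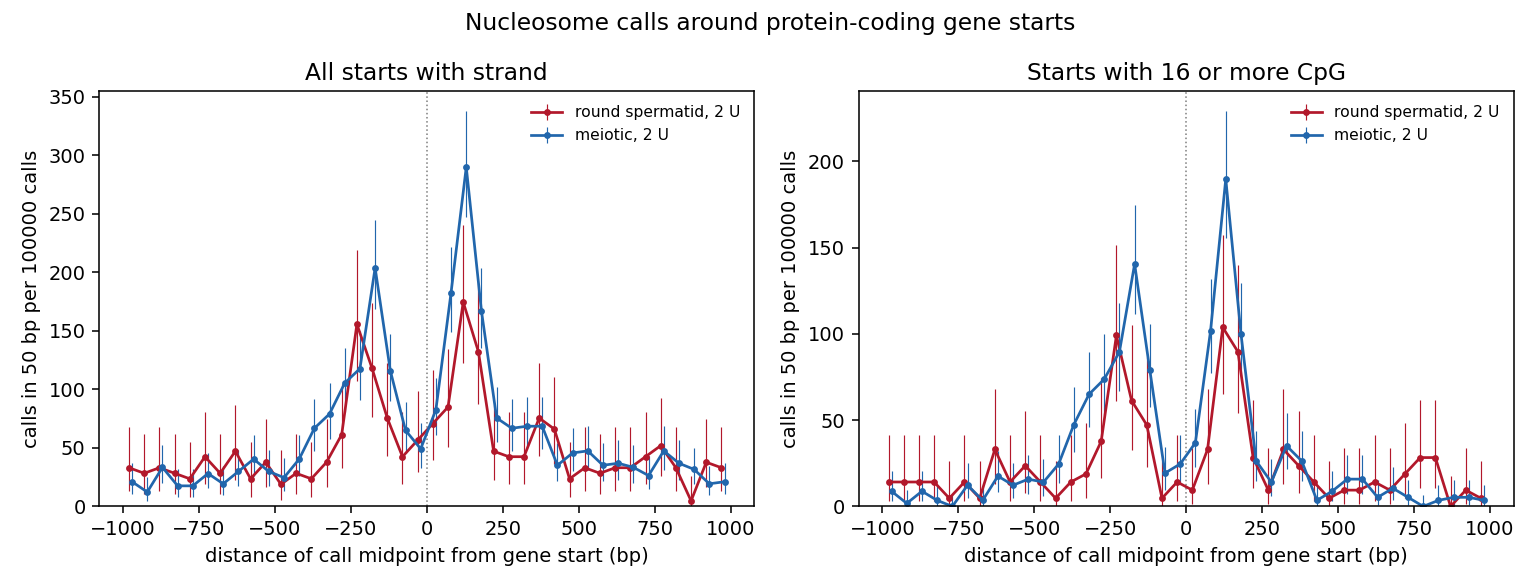
Calls per 100000 calls of the list in steps of 50 bp, by distance of the call midpoint from the gene start (negative is upstream), for all starts (left) and for starts with 16 or more CpG (right), with 95% Poisson intervals. After the start both lists peak at 100 to 149 bp, at 174.5 in RS and 289.8 in M over all starts, and before it RS peaks at 201 to 250 bp and M at 151 to 200 bp.

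The other amounts of MNase put these values in context. Calls at 100 to 199 bp after the start numbered 92.1 per 100000 in RS digested with 0.5 U, 180 with 1 U and 307 with 2 U. In M the numbers per 100000 were 178 with 0.5 U, 307 with 1 U and 457 with 2 U. RS at 2 U and M at 1 U, which had equal MNase per cell, thus had the same value to 3 digits, and the interval of their log2 ratio ran from -0.44 to 0.42. Set against the flanks, the same window stayed lower in RS, with 4.68 times in RS at 2 U and 6.06 times in M at 1 U, and 2.63 times in RS at 1 U and 4.71 times in M at 0.5 U. This comparison was added after the data were seen. Meiotic cells carry a replicated genome and round spermatids a haploid one, so equal MNase per cell is not equal MNase per amount of DNA. For the nucleosome before the start the log2 ratio at equal MNase per cell was -0.38 (-0.92 to 0.14). Stage and extent of digestion therefore cannot be told apart at gene starts.

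Few starts had the first nucleosome called in both lists. Calls in that window were found at 217 starts, 50 in RS and 172 in M, with 5 in both. The M calls with most reads were at Gbf1 (0 RS calls and 2 M calls of up to 17 reads), Mtln, a mitochondrial micropeptide (0 and 2, up to 12 reads), and Tctn2, a transition zone protein of cilia (0 and 3, up to 10 reads). Before the start, at 101 to 200 bp, 160 starts had a call, 32 in RS and 131 in M, with 3 in both. Most of these calls have few reads, so a call in 1 list alone does not show that the nucleosome was absent in the other stage. Low sharing was not particular to starts. Within 300 bp of a start, 10.9% of 211 RS calls and 3.13% of 798 M calls were shared, against 7.02% and 2.83% elsewhere.

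In windows from 250 bases before to 50 bases after the start, 80 promoters held an RS midpoint, 241 an M midpoint and 7 both. Calls away from starts were also rarely shared, as given above. The median G and C content was 58.8% in the RS set and 57.0% in the M set, against 56.3% over all 17492 windows. Windows with 16 or more CpG made up 48.8% of the RS set and 60.2% of the M set, against 45.2% of all. Searched on both strands, the Sp1 site core GGGCGG was in 51.2% of the RS set (39.8 to 62.6), 51.0% of the M set (44.5 to 57.5) and 46.3% of all windows. The full cAMP response element TGACGTCA, bound in spermatids by CREM, was in 1 of 80 windows of the RS set and 7 of 241 of the M set, against 2.33% of all. The CCAAT box was in 37.5% of the RS set, 40.7% of the M set and 39.2% of all, TATAAA in 13.8% of the RS set, 11.6% of the M set and 13.3% of all, and AAAAAA in 12 of 80 windows of the RS set, 41 of 241 of the M set and 17.2% of all. TATAAA and AAAAAA can overlap each other. For each of these 5 motifs the intervals of the RS set and of the M set included the share of all windows.

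Within 1000 bp of a gene start lay 409 RS calls (1.93%) and 1319 M calls (2.32%), a log2 ratio of -0.26 (-0.43 to -0.10). At equal MNase per cell it turned to 0.09. Gene bodies held 38.1% of RS calls and 35.5% of M calls, a log2 ratio of 0.10 (0.07 to 0.14). With calls of 8 or more reads it was 0.01.

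Gene length and gene number sorted the calls differently in the 2 stages. On autosomes, genes of 10 to 50 kb held 1905 RS calls and 3970 M calls, 1.05 and 0.818 times the autosomal mean per bp, a ratio of 1.28 (1.22 to 1.36). Genes of 50 to 200 kb had a ratio of 1.17 (1.11 to 1.22), those of 200 to 500 kb 0.993 (0.941 to 1.05) and those of 500 kb or more 0.869 (0.817 to 0.924). The shortest genes, under 10 kb, had densities of 1.17 in RS and 1.23 in M, with a ratio of 0.95 (0.832 to 1.08). RS calls were thus relatively more frequent in genes of middle length and less frequent in the longest genes.

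Bins of 1 Mb without the start of a protein-coding gene held, in RS, 0.94 times and, in M, 1.05 times the mean number of calls, a log2 ratio of -0.17 (-0.24 to -0.10). In bins with 11 to 20 starts RS held 1.15 and M 1.00 times the mean. In bins with more than 20 starts both were low, with 0.89 in RS and 0.789 in M, a log2 ratio of 0.17 (0.10 to 0.25). The direction was the same at equal MNase per cell, where the log2 ratios were larger, -0.45 in bins without starts and 0.40 in the richest bins.

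**Figure D3:**
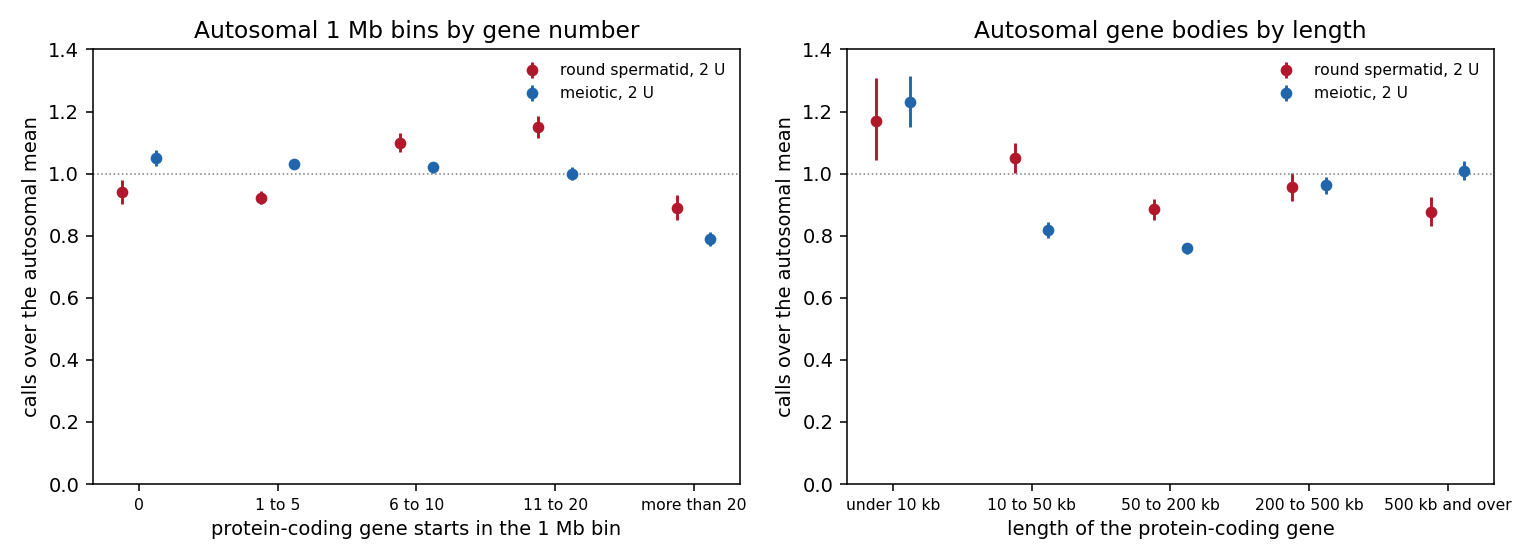
Calls over the autosomal mean in RS (red) and M (blue), with 95% Poisson intervals, by the number of gene starts in a 1 Mb bin (left) and by the length of the gene (right). RS lies below M in bins with 0 to 5 starts and above M in bins with more, and above M in genes of 10 to 200 kb and below M in genes of 500 kb and over.

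The X chromosome held few calls in either stage and relatively fewer in RS. It had 137 RS calls and 599 M calls, a density per covered bin of 0.113 (0.0948 to 0.134) of the autosomes in RS and 0.185 (0.170 to 0.200) in M. The ratio of these densities was 0.612 (0.505 to 0.738). Densities were not adjusted for the copy number of the X and the autosomes. In segments of 10 Mb along the X the ratio was below 1 in 17 of 18, the exception being the last, with 4 calls in each list. Only at 30 to 40 Mb and at 100 to 110 Mb did the interval lie wholly below 1. The lowest ratio was 0.261 (0.0679 to 0.721) at 100 to 110 Mb, with 4 RS calls and 41 M calls. The segment with most calls, at 30 to 40 Mb, had 22 RS calls and 131 M calls. Gene bodies held 24.8% of the RS calls and 24.5% of the M calls of the X. At equal MNase per cell the ratio was 0.464 (0.386 to 0.555). With calls of 7 or more reads it was 0.854 (0.584 to 1.22), an interval that includes 1.

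Every autosome lay much closer to equality than the X. The ratio of relative densities ran between 0.857 (0.803 to 0.914) on chromosome 3 and 1.11 (1.03 to 1.21) on chromosome 17. The Y had 45 RS calls and 89 M calls in 10 bins of 1 Mb with calls, a ratio of 1.35 (0.924 to 1.96). No call outside dense bins lay at any of the 42 matched genes of the X and Y that are multicopy or escape silencing in spermatids. Among these genes were 4933402E13Rik and Akap4, which encodes a scaffold of the sperm tail. Calls in dense bins were not counted, and only 7486 of all 21887 protein-coding genes held a call.

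**Figure D4:**
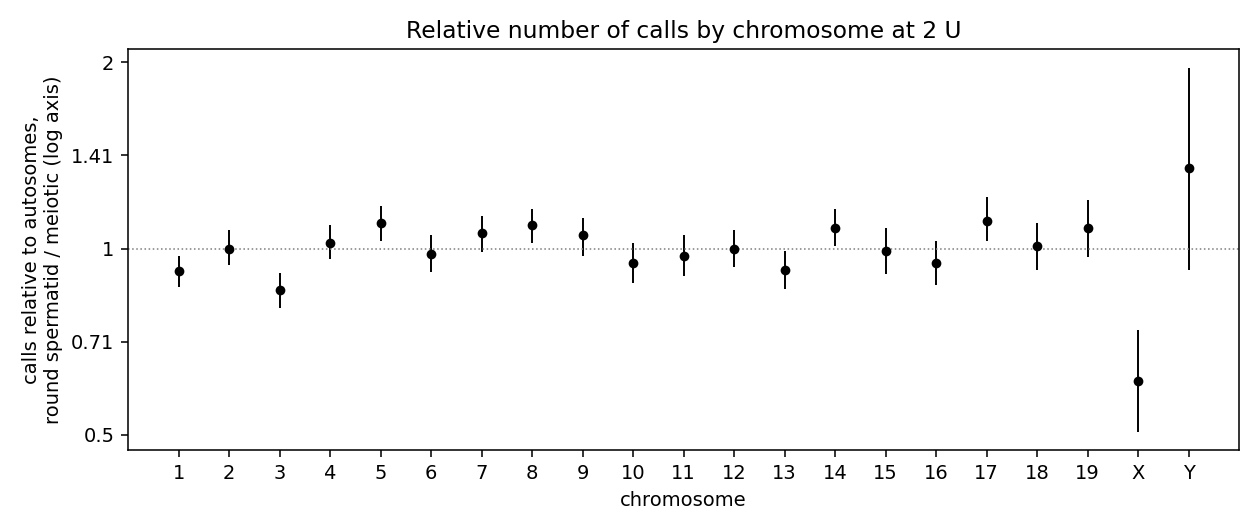
Ratio of calls relative to the autosomes, RS over M, on each chromosome, on a log axis with 95% intervals. The X, at 0.612, lies below every autosome, which range between 0.857 and 1.11.

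For single genes, calls in the body and 1000 bp on each side were set per 100000 calls of the list, so that a gene with equal counts in both lists counts as 2.69-fold higher in RS. Of 2095 protein-coding genes with at least 4 calls over both lists, 525 (25.1%) had at least 2 times the relative number in RS and 603 (28.8%) in M. Genes past that fold were shorter than the rest, with medians of 110 kb for those higher in RS and 127 kb for those higher in M, against 202 kb for neither. Low counts reach the fold more easily, so these shares are the background for the lists below. Of the 603, 473 had 0 calls in RS, and of the 525, 48 had 0 calls in M.

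Neighbouring genes on chromosome 17 had relatively more calls in RS. In the 1 Mb bin at 30 Mb there were 53 RS calls and 25 M calls, in 40 merged positions in RS and 20 in M. It holds Dnah8, the heavy chain of an outer dynein arm of the sperm tail (chr17:30626935-30875762, GRCm38.p6), with 23 RS calls and 7 M calls, 8.42-fold higher in RS (interval of the ratio 3.67 to 24.4). Beside it, Btbd9, a BTB domain gene (chr17:30215524-30582621), had 14 RS calls and 10 M calls, 3.71-fold higher (1.55 to 9.46). Glo1, a detoxifying glyoxalase between them, had 6 RS calls and 3 M calls. Glp1r, a peptide hormone receptor on the far side, had 2 RS calls and 5 M calls. The highest RS call of the bin had 8 implied reads and the highest M call 7, so the block is made of many weak calls.

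Other genes with the largest surplus in RS fall into those with spread calls and those with calls in a few places. Akap9, which anchors protein kinase A at the Golgi and centrosome, had 13 RS calls in 4 merged positions and 7 M calls in 2. Esrrg, an orphan nuclear receptor, had 16 RS calls in 8 positions and 13 M calls in 11. Anks1b, a synaptic ankyrin repeat protein, had 18 RS calls and 20 M calls, and Cdh13, the cadherin without a transmembrane domain, 16 and 16. E030030I06Rik had 19 RS calls in 2 positions and 19 M calls in 1. Gm3248 had 33 RS calls and 30 M calls, and Zfp981 had 22 RS calls and 21 M calls. Gm3248 and Zfp981 lie among near-identical copies, between which reads cannot be divided with certainty. For 4931408C20Rik, whose promoter is printed above, there were 15 RS calls and 12 M calls.

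The 10 genes with the largest surplus in M were all long, from 375 kb to 2197 kb. Lsamp, a cell adhesion protein of neurons, had 11 RS calls and 63 M calls. Npas3, a transcription factor of the brain, had 1 RS call and 34 M calls, 8.56-fold higher in M (merged positions 1 and 25). Dpp10, a subunit of potassium channels, had 2 RS calls and 36 M calls, and Trpm3, a cation channel, 2 and 31. Cntnap5b, a contactin-associated protein, had 7 RS calls and 44 M calls. Further members were Mgat4c, a glycosyltransferase (1 RS call and 24 M calls), Pdzrn4, a PDZ domain protein (3 and 29), Ccser1 (2 and 26), the glutamate receptor Grm7 (2 and 26) and the adhesion receptor Adgrb3 (1 and 22).

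**Figure D5:**
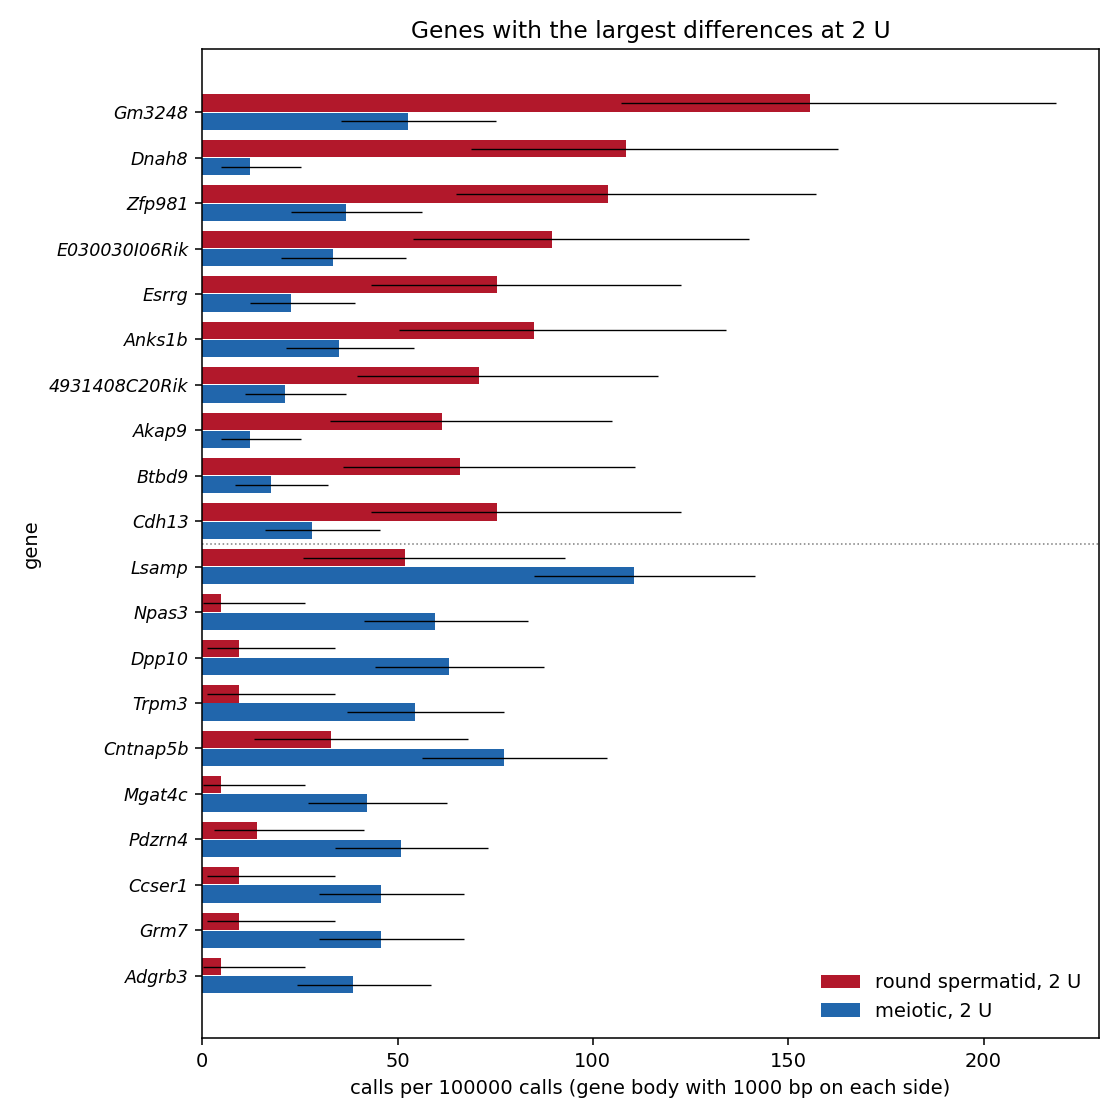
Calls per 100000 calls in the 20 genes with the largest differences, RS in red above M in blue, with 95% Poisson intervals; the dotted line parts the 10 genes higher in RS (above) from the 10 higher in M (below). Dnah8 stands at 108.5 in RS and 12.29 in M, and Npas3 at 4.717 in RS and 59.71 in M.

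Genes of the sperm flagellum had relatively more calls in RS. The 68 matched genes held 76 RS calls and 79 M calls, a log2 ratio of 1.37 (0.90 to 1.84) against 0.09 (0.06 to 0.13) for all protein-coding genes. Without Dnah8 it was 0.98 (0.44 to 1.52). Autosomal genes of 10 to 50 kb had a log2 ratio of 0.36 (0.28 to 0.44) and those of 50 to 200 kb 0.22 (0.155 to 0.286). The flagellum list was not matched for length. Like all gene lists here, it was chosen with earlier results of these data known, so its ratio is not independent support. Of 11 with at least 4 calls, 4 (36.4%) were past the fold in RS, against 25.1% of all genes, and 1 in M. Beside Dnah8 they included Spag16, of the central pair of the axoneme (11 RS calls and 4 M calls), and Cfap61, of the radial spokes (2 and 2). The one higher in M was Fsip2, of the fibrous sheath (0 RS calls and 4 M calls). Dnah9, a dynein chain, had 2 RS calls and 11 M calls, and Odf2, of the outer dense fibres, 3 and 0. With calls of 8 or more reads the log2 ratio of the list was -0.06, with a wide interval (-5.77 to 3.58).

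Genes long and active in neurons had relatively fewer calls in RS. The 62 matched genes held 509 RS calls and 1619 M calls, a log2 ratio of -0.24 (-0.39 to -0.10), about that of all autosomal genes of 500 kb and over, -0.20 (-0.29 to -0.11). With M calls of 7 or more reads against all RS calls it was -0.09 (-0.28 to 0.11). All 62 had at least 4 calls; 2 (3.23%) were past the fold in RS, Cdh13 and the synaptic scaffold Magi2 (12 RS calls and 16 M calls). In M 15 (24.2%) were, a share near the 28.8% of all genes. Olfactory receptors, a large family of smell receptors that is mostly silent in the testis, held 27 RS calls and 153 M calls over 1106 genes, a log2 ratio of -1.08 (-1.72 to -0.48). Only 5 of them had at least 4 calls, among them Olfr943 (4 RS calls and 0 M calls) and Olfr209 (0 RS calls and 8 M calls). For vomeronasal receptors, with 37 RS calls and 122 M calls, the log2 ratio was -0.30 (-0.87 to 0.25). With calls of 7 or more reads it was 0.66 (-0.28 to 1.54) and with 8 or more 2.70 (0.86 to 4.85), the opposite direction. In this family Vmn2r111 had 4 RS calls and 3 M calls, and Vmn2r93 had 0 and 7.

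Zinc finger genes named Zfp held 292 RS calls and 507 M calls over 397 genes, a log2 ratio of 0.63 (0.42 to 0.84). Much of that came from 16 members in a cluster on chromosome 4, where Zfp993 alone had 44 RS calls and 61 M calls and Zfp978 had 42 and 73, partly in overlapping genes. Without the 16 it was 0.17 (-0.20 to 0.52), and with M calls of 7 or more reads against all RS calls 0.09 (-0.18 to 0.37). Of 31 with at least 4 calls, 7 (22.6%) were past the fold in RS and 7 in M, shares near the background. Higher in M were, for example, Zfp423 (2 RS calls and 20 M calls) and Zfp462 (0 RS calls and 8 M calls).

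Genes that define the 2 stages had too few calls to be compared one by one. The protamines Prm1 and Prm2 and the transition proteins Tnp1 and Tnp2, which replace histones later in spermatids, had 0 calls in both lists. So did Sycp1 and Sycp3, of the synaptonemal complex of meiosis, and the acetyltransferase Kat2a, while the testis bromodomain gene Brdt had 1 RS call and 0 M calls. These counts measure protected DNA and not RNA, so they cannot check the stage of either fraction. The 75 matched meiosis genes held 17 RS calls and 28 M calls, a log2 ratio of 0.71 (-0.26 to 1.63). Mei4, needed for meiotic DNA breaks, had 6 RS calls and 4 M calls, Tex15 had 3 and 0, and the checkpoint kinase Atr had 0 and 5. Acrosome genes, with 14 RS calls and 30 M calls, had a log2 ratio of 0.33 (-0.70 to 1.29). Among them the autophagy gene Atg7 had 5 RS calls and 6 M calls, and Agfg1 had 3 and 0. Genes of sperm ion channels and signalling, with 9 RS calls and 12 M calls, had a log2 ratio of 1.01 (-0.42 to 2.38). The CatSper subunit genes Catspere1 and Catsperb had 2 RS calls each, against 0 and 1 M calls. Genes of spermatid chromatin held 13 RS calls and 17 M calls, a log2 ratio of 1.04 (-0.12 to 2.17). Camk4, a kinase, had 6 RS calls and 6 M calls, and the acetyltransferase gene Kat8 had 3 and 0.

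Among other lists, markers of Sertoli cells, Leydig cells and macrophages, which are not germ cells, held 15 RS calls and 17 M calls over 31 genes, a log2 ratio of 1.24 (0.14 to 2.33). With M at 1 U the log2 ratio was 0.55 (-0.48 to 1.53), with merged calls 1.16 (-0.14 to 2.44) and without the member with most calls 1.20 (-0.04 to 2.42), all with intervals that include 0. Of the macrophage genes, Adgre1 had 4 RS calls and 1 M call, and Mrc1 had 1 and 4. Whether somatic cells took part in either fraction was not tested. The Sertoli cell factor gene Gata4 had 3 RS calls and 0 M calls, and the steroidogenic factor gene Nr5a1 had 3 and 3. Kitl, Lhcgr, Myh11, Pdgfra and Trf had 0 RS calls and 1 or 2 M calls each. Genes of histone acetylation held 27 RS calls and 69 M calls, a log2 ratio of 0.07 (-0.63 to 0.73), and the coactivator gene Ncoa2 had 0 RS calls and 7 M calls. Spermatogonial genes held 11 RS calls and 40 M calls, a log2 ratio of -0.44 (-1.55 to 0.55). Zbtb16, a repressor of undifferentiated spermatogonia, had 1 RS call and 11 M calls, and the pluripotency gene Pou5f1 had 2 and 0. Developmental transcription factors held 57 RS calls and 138 M calls, a log2 ratio of 0.15 (-0.32 to 0.61), with 6 RS calls and 5 M calls at Sox6 and 12 and 24 at Sox5. Ribosomal protein genes held 2 RS calls and 10 M calls, a log2 ratio of -0.90 (-4.13 to 1.33), and housekeeping genes 1 and 13, a log2 ratio of -2.28 (-7.68 to 0.46). Rpl21, Rps18, Hnrnpa1 and Psmd1 of these lists had 0 RS calls and 3 M calls each. Replication-dependent histone genes held 3 RS calls and 0 M calls, all at H4c14, while the others, H2ac1 among them, had 0 calls in both lists. The intervals over these 17 lists were not adjusted for their number.

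Some 1 Mb bins held relatively more calls in M, while others, such as that of Dnah8 given above, went the other way. The 1 Mb bin of chromosome 4 at 114 Mb had 0 RS calls and 44 M calls, in 27 merged positions over 23 bins of 10 kb, with at most 8 implied reads. The bin of chromosome 9 at 46 Mb, which holds the kinase gene Sik3 and the apolipoprotein genes Apoa1 and Apoc3, had 17 RS calls and 100 M calls, in 12 and 59 merged positions. These bins were named after their values were seen.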

How the data were processed

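MNase-seq of RS and M at 2 U was analysed from lists of nucleosome calls. Per the submitters' processing notes, STAR 2.5.2a and the build GRCm38/mm10 were used. How nucleosomes were called is not given in the sources used here. Both replicates went into each list, per the design text of the labels. The only deposited measurement is the p-value of a call, made by the authors; the number of reads sequenced is unknown.

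The p-values of a list were matched to upper Poisson tails, with a largest difference of natural logarithms of 2.82e-11, and each call was given the read number of its tail; 172 RS calls and 193 M calls below 1e-300 were given the next number. The p-values were used to rank or filter calls, and the read numbers derived from them are set side by side between lists; these rest on the match to Poisson tails and on each list's own background. Calls were taken by their midpoints. Genes were 21887 protein-coding genes of RefSeq on GRCm38.p6; 17492 had a start with strand. Calls on unplaced contigs and in dense bins were left out of placement. Relative density is calls per 1 Mb bin that holds a call, over the same on 19 autosomes. Gene folds added 0.5 to each count. Intervals are exact (Clopper-Pearson for shares, conditional binomial for ratios, Poisson for counts). No chromosome 18 starts had strand in the table.

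Named genes were 8 preset ones, the 10 genes per direction with the largest difference in calls per 100000 past 2-fold, the 2 members of a list with the largest difference, and promoters by summed implied reads; Glo1, Glp1r, Sik3, Apoa1, Apoc3, Gbf1, Mtln, Tctn2 and further list members were named after their values were seen. One gene of a list is not reported here. Members and gene lists were chosen with earlier results of these data known. Python 3.11.15, numpy 2.4.6, pandas 2.3.3, scipy 1.17.1 and matplotlib 3.10.9 were used. The derivation of read numbers, the gene folds, the sharing of positions and the distances from gene starts were tested on simulated data. The other steps were not.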

Additional observations from a re-analysis of the deposited data

Results flagged for a closer look

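The direction of 3 stage differences was not the same at 2 U as at 0.5 U; these changes between amounts were not tested. RS had 0.413 times as many calls as M at 2 U and 4.25 times as many at 0.5 U. The log2 ratio of RS over M within 1000 bp of gene starts was -0.264 at 2 U and 0.17 at 0.5 U. The share of calls in dense bins, RS over M, was 1.66 at 2 U and 0.455 at 0.5 U.

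Calls on unplaced contigs were outside the main comparison. A single contig, Un_JH584304, held 6.11% of all RS calls and 2.68% of all M calls.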

How the results depend on the processing

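Single calls rest on 6 reads or few more, replicates are pooled, and the RS list has lower implied coverage. Differences between stages therefore cannot be told apart from those in coverage and digestion. No paired analysis was possible because each list pools its replicates and no result comes from a test.

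With M at 1 U, equal MNase per cell (chosen after seeing the data), the ratio of list sizes was 0.451, sharing of RS calls 17.6%, X density 0.464, gene bodies 0.23, gene starts 0.0867 (the opposite direction), the first nucleosome -0.00138, gene-poor bins -0.447 and gene-rich bins 0.395. With M calls of at least 7 reads against all RS calls, list size was 1.28 and dense bins 0.683 (both in the opposite direction), sharing 16.2% of RS and 22.0% of M calls, gene bodies 0.149, gene starts -0.653, the first nucleosome -0.995, the nucleosome before the start -1.45, gene-poor bins -0.0944, and 283 genes were past the fold in RS and 244 in M. The cause of these turns was not tested.

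With at least 7 reads in both lists, list size was 0.436, sharing 42.7% of RS and 18.4% of M calls, dense bins 1.59, X density 0.854, and 122 genes were past the fold in RS and 178 in M. With at least 8, the values were 0.571, 69.7% and 36.9%, 1.27, 0.878, and 33 and 21 genes; gene bodies were 0.00768, gene starts -0.742, the first nucleosome -1.72, the nucleosome before the start -1.93, gene-poor bins -0.48, and 3 gene lists had intervals without 0, against 6. Flagellum genes then turned direction, to -0.0561 (-5.77 to 3.58), and vomeronasal receptors to 2.70 (0.858 to 4.85), after 0.656 with at least 7 reads.

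With merged calls, the first nucleosome was -0.327 (-0.83 to 0.152), list size 0.392, call height 1.36, sharing 6.51% of RS and 2.54% of M calls, dense bins 1.80, and 283 genes were past the fold in RS and 258 in M. Without dense bins, list size was 0.373, call height 1.42 and sharing 7.06% and 2.84%. Call height was 1.38 with 8 reads as high. Sharing within 20 bp was 15.1% and 6.18%, and within 140 bp 20.5% and 9.68%. Dense bins gave 1.60 with more than 10 calls and 1.83 with more than 40. Gene starts were -0.444 within 500 bp and -0.102 within 2000 bp. Genes past the fold were 367 in M with 1 added to each count; 2360 in RS and 1150 in M with at least 1 call; and 158 and 201 with at least 8 calls. Main values were 0.413 for list size, 1.74 for call height (the share of calls of 10 or more reads, RS over M), 18.8% and 8.33% for sharing over all bins, 1.66 for dense bins, 0.612 for X, and as given for the rest. Over all alternatives for the main results, those above included, 48 left the value within its interval or a count within 1.5 times. A larger number, 61, moved it outside these bounds, and 3 turned its direction.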
